A study of Homo sapiens with 2 samples.

Results

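Nuclear receptors are transcription factors that share a zinc-finger domain for DNA and, in most members, a pocket that takes a small lipid-soluble ligand. Many bind variants of the half-site AGGTCA as monomers, as homodimers or with RXR as a partner, and they recruit corepressors or coactivators according to their ligand. In myeloid cells this family is best known through the retinoic acid receptors, but receptors for glucocorticoids, vitamin D and oxysterols, and the immediate-early NR4A receptors, also act there. The genes described here are 40 human nuclear receptor genes outside the RAR and RXR groups, out of 19970 protein-coding genes on the autosomes and chromosome X. The rule that names them is family membership and uses no measured value, although the family was picked with earlier results of these data known. The remaining human receptor genes were not analysed here.

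LDB1 is a self-associating cofactor of the nucleus that brings LMO proteins, GATA factors and E-box binding factors together on regulatory DNA. CUT&Tag was used to map it, in which an antibody directs a Tn5 transposase to cut and tag the DNA beside its target, in NB4 cells, an established line of human acute promyelocytic leukaemia with the PML::RARA fusion. The cells were untreated. There was 1 library with an LDB1 antibody and 1 with IgG, neither had a replicate, and the IgG library was not analysed here, so no value has a replicate check and no test was possible. Whether the IgG library served as the peak caller's control is not given in the sources used here. Signal from open chromatin can therefore not be told apart from LDB1 binding in these values.

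The values are the positions and widths of the deposited peaks (hg38, counted from 1), with 52765 of them on the autosomes and chromosome X. Height, fold enrichment and depth were unknown. A peak is said to be at a gene end when its midpoint was within 1 kb of either end of the gene, and near a gene when its midpoint was in the gene or within 10 kb of it. Each deposited peak can count for more than 1 gene. Promoter windows are 300 bases, from 250 before to 50 after an annotated RefSeq start, and 35 of the 40 receptor genes had at least 1. NR2F6, HNF4G, NR0B2, VDR and NR4A2 had none in the table used.

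LDB1 peaks lay near 32 of the 40 receptor genes (80.0%, exact Clopper-Pearson 95% interval 64.4 to 90.9%), where 70.1% of all protein-coding genes had one. Genes of like length, taken as the 10 equal classes of gene length, would give 30.0 of the 40, or 74.9%. At gene ends the count was 15 of 40 (37.5%, interval 22.7 to 54.2%) against 37.6% of all protein-coding genes and 38.5% at like length. With all peaks counted, both shares were thus near the background, and the intervals cover counting error only. The median receptor gene had 2 peaks and the median protein-coding gene 1, and by gene 17 receptors were above, 13 at and 10 below the median of their length class.

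The receptors differed widely among themselves. The most peaks were 9, near each of NR5A1, NR4A1 and ESRRA. NR2F1 had 7, and THRA, PPARD, ESRRG, NR4A2 and NR5A2 had 6 each. These 9 genes with at least 6 peaks are 22.5% of the 40, against 12.7% of all protein-coding genes. That share is not matched for length. Counted from the shortest, it was 8.11 and 13.7% in length classes 3 and 6 and 16.9 and 21.6% in classes 9 and 10. Classes 9 and 10 hold 8 and 10 of the receptors. A further 7 of the 40 receptors had 3 to 5 peaks, 7 had 2 and 9 had 1. No peak lay near PPARA, RORA, RORB, NR1I3, HNF4G, NR2C1, NR4A3 or NR0B2.

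**Figure D1:**
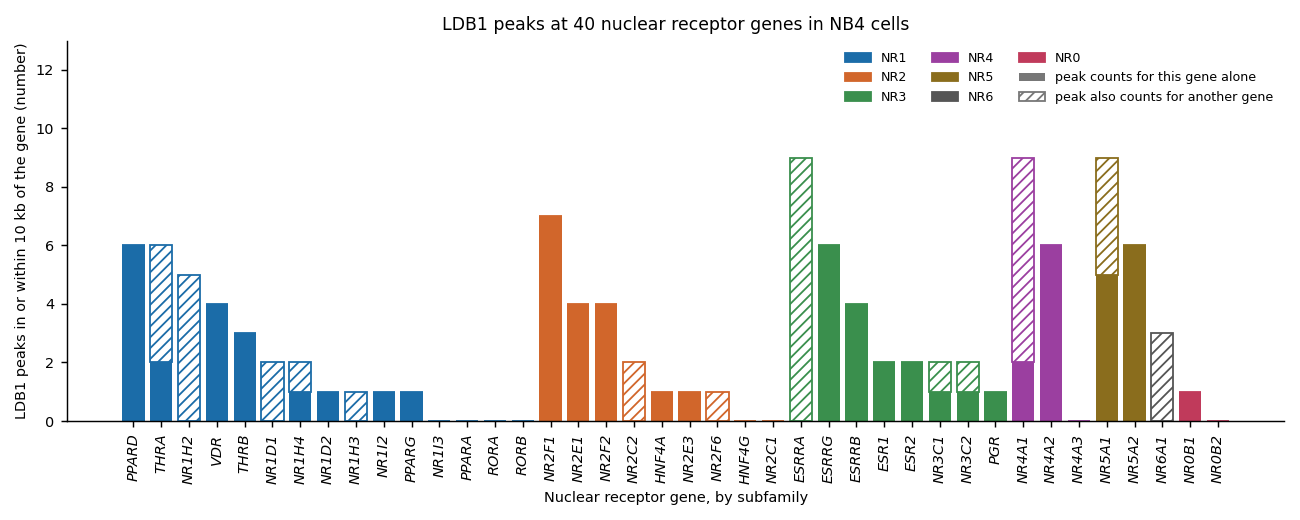
Number of LDB1 peaks with a midpoint in or within 10 kb of each of the 40 receptor genes, by subfamily, from 1 library. Solid parts are peaks that count for that gene alone and hatched parts are peaks that also count for another protein-coding gene; ESRRA, NR4A1 and NR5A1 each reach 9, and all 9 of ESRRA are hatched.

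The same family held closely related receptors with many peaks and with none. The 3 NR4A genes had 9, 6 and 0 peaks, and the 3 PPAR genes had 6, 1 and 0. All 8 genes of the NR3 subfamily, the steroid, estrogen and estrogen-related receptors, had a peak near them, where genes of like length would give 6.60. The NR1 subfamily, which holds the thyroid hormone, vitamin D, lipid and clock receptors, had 11 of 15 (11.2 at like length). The NR2 subfamily had 7 of 9 (6.54) and the NR4 subfamily 2 of 3 (2.07). Both NR5 genes (1.46 at like length) and the single NR6 gene (0.868) had peaks, and 1 of the 2 NR0 genes did (1.21). With so few genes, these counts are near those at like length.

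Promoter windows show which annotated starts lay under a peak. The 9 windows that lay under a peak over all 300 bases belonged to 6 genes, and they are shown because the peak takes in the whole of a known start region. Of windows of the same gene that overlap each other, 1 is given. For HNF4A and NR5A2 the upstream start, which lay under no peak, is set beside the inner one. Sequences are from RefSeq (GRCh38.p14), 5′ to 3′ along the gene. Capitals mark letters matching AGGTCA, the receptor half-site, CANNTG, the E-box core of basic helix-loop-helix factors, AGATAA or TGATAA, forms of the GATA site, TGTGGT, a RUNX core, or TGANTCA, an AP-1 site, on either strand. Neighbouring matches can overlap and then run together.
HNF4A inner start, under a peak (chr20:44400989-44401288, plus strand): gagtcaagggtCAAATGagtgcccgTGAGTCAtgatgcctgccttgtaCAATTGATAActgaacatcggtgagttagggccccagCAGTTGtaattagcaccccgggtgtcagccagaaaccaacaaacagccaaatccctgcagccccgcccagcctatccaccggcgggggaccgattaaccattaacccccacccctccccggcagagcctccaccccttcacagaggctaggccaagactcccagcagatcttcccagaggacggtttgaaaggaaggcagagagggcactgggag
HNF4A upstream start, under no peak (chr20:44355449-44355748, plus strand): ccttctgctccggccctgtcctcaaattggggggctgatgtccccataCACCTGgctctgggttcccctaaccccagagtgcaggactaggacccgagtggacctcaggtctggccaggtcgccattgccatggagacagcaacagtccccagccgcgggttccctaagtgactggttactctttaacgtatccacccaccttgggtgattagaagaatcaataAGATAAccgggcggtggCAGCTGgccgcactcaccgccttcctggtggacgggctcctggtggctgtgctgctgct
NR5A2 inner start, under a peak (chr1:200042341-200042640, plus strand): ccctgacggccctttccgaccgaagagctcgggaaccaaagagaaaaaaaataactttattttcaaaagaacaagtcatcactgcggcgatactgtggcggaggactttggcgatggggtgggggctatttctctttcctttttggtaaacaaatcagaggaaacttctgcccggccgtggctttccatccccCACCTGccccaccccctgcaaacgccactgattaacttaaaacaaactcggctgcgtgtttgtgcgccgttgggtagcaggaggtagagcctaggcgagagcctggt
NR5A2 upstream start, under no peak (chr1:200027460-200027759, plus strand): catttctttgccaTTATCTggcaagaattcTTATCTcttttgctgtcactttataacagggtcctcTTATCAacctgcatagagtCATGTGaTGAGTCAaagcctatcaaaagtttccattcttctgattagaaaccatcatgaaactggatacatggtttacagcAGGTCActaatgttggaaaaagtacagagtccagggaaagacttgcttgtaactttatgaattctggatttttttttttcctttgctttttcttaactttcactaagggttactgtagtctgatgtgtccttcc
NR5A1 start, under a peak (chr9:124507350-124507649, minus strand): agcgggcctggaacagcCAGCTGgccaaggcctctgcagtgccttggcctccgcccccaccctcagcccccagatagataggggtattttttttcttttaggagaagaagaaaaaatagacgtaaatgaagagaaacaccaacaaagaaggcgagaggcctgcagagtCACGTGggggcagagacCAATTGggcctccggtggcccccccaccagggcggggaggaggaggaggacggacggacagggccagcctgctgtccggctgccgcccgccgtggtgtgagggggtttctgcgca
ESR2 inner start, under a peak (chr14:64294361-64294660, minus strand): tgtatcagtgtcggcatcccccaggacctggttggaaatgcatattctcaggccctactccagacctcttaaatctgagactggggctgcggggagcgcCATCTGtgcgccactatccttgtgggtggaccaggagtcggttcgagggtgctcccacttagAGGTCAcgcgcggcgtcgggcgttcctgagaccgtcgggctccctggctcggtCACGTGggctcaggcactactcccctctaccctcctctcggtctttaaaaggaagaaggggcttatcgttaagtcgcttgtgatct
ESRRG upstream start, under a peak (chr1:217137653-217137952, minus strand): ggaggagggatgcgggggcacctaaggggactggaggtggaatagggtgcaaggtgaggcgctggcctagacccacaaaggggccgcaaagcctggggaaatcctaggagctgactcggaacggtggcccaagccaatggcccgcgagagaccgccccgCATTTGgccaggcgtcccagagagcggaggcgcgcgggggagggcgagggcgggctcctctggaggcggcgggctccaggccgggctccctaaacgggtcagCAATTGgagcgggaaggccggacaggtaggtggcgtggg
ESRRG inner start, under a peak (chr1:217089775-217090074, minus strand): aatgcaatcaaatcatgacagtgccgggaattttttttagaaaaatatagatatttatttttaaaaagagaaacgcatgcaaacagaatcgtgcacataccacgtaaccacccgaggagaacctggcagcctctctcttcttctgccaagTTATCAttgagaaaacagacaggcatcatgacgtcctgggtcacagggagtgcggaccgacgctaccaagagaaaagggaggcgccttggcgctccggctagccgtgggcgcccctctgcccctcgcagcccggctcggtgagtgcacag
NR3C2 inner start, under a peak (chr4:148444649-148444948, minus strand): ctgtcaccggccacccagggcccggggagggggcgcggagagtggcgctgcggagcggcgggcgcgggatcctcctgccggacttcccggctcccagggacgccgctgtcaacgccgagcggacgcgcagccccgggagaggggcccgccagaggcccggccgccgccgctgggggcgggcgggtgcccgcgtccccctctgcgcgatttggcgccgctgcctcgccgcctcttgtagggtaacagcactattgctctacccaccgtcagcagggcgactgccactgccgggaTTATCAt

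At least 1 window lay under a peak, by 1 base or more, in 14 of the 35 receptor genes (40%, interval 23.9 to 57.9%), against 28.0% of the protein-coding genes in the table. Receptor genes have more annotated starts than most, a mean of 2.37 windows against 1.40. Genes with as many windows as each receptor would give 12.0 of the 35, or 34.2%. With a peak midpoint within 1 kb of a window the count was 20 of 35, against 36.4% of protein-coding genes. With the widest 50% and 25% of peaks it was 13 and 9 of 35, against 19.9 and 12.6%. The background shares of these alternatives were not matched for number of windows, of which receptor genes have more. Counted by window, 23 of 83 receptor windows (27.7%) lay under a peak, against 24.3% of windows of protein-coding genes. Of the 14 genes, 6 were in the NR3 subfamily, where ESRRA and ESRRB were the exceptions. These 6 genes have 3 to 8 windows each. Of protein-coding genes with 3, 4 and at least 5 windows, 41.0, 47.8 and 54.0% had a window under a peak.

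Where a receptor gene has several annotated starts, a peak could lie over some and not others. Of 20 genes with more than 1 window, 10 had none under a peak, 9 had a peak over some but not all, and in THRB both windows were covered. Of protein-coding genes with 2, 3, 4 and at least 5 windows, 34.7, 41.0, 47.8 and 54.0% had a window under a peak. How often only some windows were covered was not counted over all protein-coding genes. In HNF4A, which encodes a receptor of liver, kidney and gut, the only peak (919 bp, 44400834 to 44401752) covered the inner start, 45.5 kb into the gene, and the upstream start was 44.3 kb from the nearest peak. In NR3C1, which encodes the glucocorticoid receptor, the last of 7 starts, 32.2 kb into the gene, had 168 bases under a peak of 758 bp (chromosome 5, 143402644 to 143403401). The other 6 windows of NR3C1 had none. In ESR1, the gene of estrogen receptor alpha, 38 bases of 1 of 6 windows lay under a peak of 812 bp, 151 kb into the gene. These are overlaps of listed intervals, and which start is used in NB4 cells was not measured here.

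**Figure D2:**
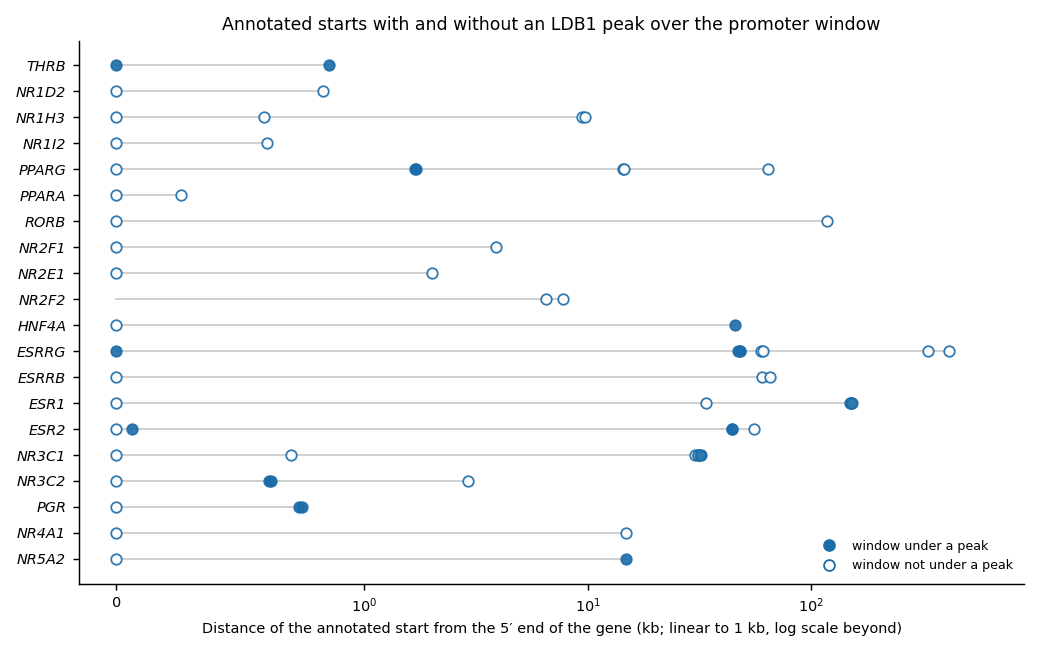
Annotated RefSeq starts of the 20 receptor genes with more than 1 promoter window, as the distance in kb from the 5′ end of the gene (linear to 1 kb, log scale beyond). Filled points are windows under an LDB1 peak and open points are windows not under one, and starts close together overlap; HNF4A and NR5A2 have an open upstream start and a filled inner start.

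The motif letters did not set the covered receptor windows apart in a clear way. CANNTG was found in 15 of the 23 receptor windows under a peak and in 45 of the 60 others. It is in 68.7% of all 34961 windows and 61.8% of those under a peak. Of these 34961, 22131 are of protein-coding genes, and values over all windows in this paragraph are of the wider set. AGATAA or TGATAA was found in 4 of the 23 and 9 of the 60, against 16.3% of all windows and 7.69% of those under a peak. The 4 were 1 window each of HNF4A, ESRRG, NR3C2 and NR3C1. AGGTCA was found in 4 of the 23, 2 overlapping windows each of ESR2 and PPARG, and in 9 of the 60. It is in 13.8% of all windows and 10.3% of those under a peak. CAGCTG and CAGATG, 2 forms of the E-box, were in 3 and 4 of the 23 and in 15 and 8 of the 60. They are in 18.0 and 14.7% of all windows and in 19.9 and 10.5% of those under a peak. TGTGGT was in none of the 23 and 8 of the 60, and TGANTCA in 1 and 4. These motifs are in 13.1 and 7.68% of all windows and in 9.02 and 4.7% of those under a peak. Base composition differs with peaks over all windows, with a median GC content of 67.0% under a peak and 55.0% elsewhere, and in receptor windows the medians were 61.7 and 56.2%. Its part in the motif counts was not tested. In the HNF4A inner window an E-box match runs into a TGATAA match, as shown above.

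The NR5A receptors are orphan activators that bind DNA as monomers. NR5A1 encodes steroidogenic factor 1, the regulator of adrenal and gonadal steroid synthesis. Its 9 peaks lay on chromosome 9, with 6 in the gene, 1 upstream and 2 downstream. The widest, of 1444 bp (124506407 to 124507850), covered the whole promoter window. The others were between 355 and 1437 bp wide, and those in the gene ran from 1.03 to 82.8% of its 26.2 kb. Of protein-coding genes in its length class, 5.81% had as many peaks. The 500 kb to either side held 42 peaks per Mb, against a median of 23.0 around protein-coding genes. The part of these surroundings in the count was not tested. Of the 9, 4 also count for a neighbour, 3 for ADGRD2 and 1 for NR6A1.

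NR5A2, which encodes the liver and pancreas receptor LRH-1, had all 6 of its peaks inside the gene. A run of 5, of 1054, 1076, 1109, 1221 and 599 bp, lay from 200029041 to 200042891 on chromosome 1, between the upstream start and the far side of the inner start. The last of the run was centred on the inner start, with its midpoint 1 bp from it. The remaining peak, of 372 bp, was 75.4 kb beyond that start. None of the 6 counts for another protein-coding gene. The 500 kb to either side held 9 peaks per Mb, against a median of 23.0 around protein-coding genes (quartiles 9 and 50).

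NR6A1, the germ cell receptor gene next to NR5A1, had no peak in its 254 kb. Its 3 peaks lay in the flanks, 1 of them the 1083 bp peak between it and NR5A1 and 2 inside the neighbour OLFML2A.

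The NR4A receptors are immediate-early orphan factors, and they act in myeloid cells and restrain acute myeloid leukaemia in mice. NR4A1, which encodes NUR77, had 9 peaks on chromosome 12, 5 in the gene, 3 upstream and 1 downstream. They were from 388 to 1185 bp wide, and the widest was the farthest upstream, inside the neighbour TAMALIN. A peak of 395 bp had its midpoint 0.332 kb inside the first start, but it began 86 bp beyond the promoter window. Of the 9, 7 also count for TAMALIN or ATG101. NR4A2, which encodes NURR1, had 6 peaks on chromosome 2 within a gene of 8.29 kb and its flanks, and none of them counts for another gene. Its widest, of 1035 bp (156332121 to 156333155), lay across a gene end. As many peaks were near 7.46% of genes in the length class of NR4A1 and near 8.11% in that of NR4A2. The 500 kb to either side held 48 peaks per Mb at NR4A1 and 9 at NR4A2, against a median of 23.0. The part of these surroundings in the counts was not tested.

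NR4A3, the other gene of the group, had no peak within 10 kb, and its promoter window was 84.7 kb from the nearest one. It lies in a stretch of 407 kb of chromosome 9 that holds no peak and no other whole protein-coding gene. In its length class 29.6% of genes had no peak.

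The estrogen-related receptors are orphan regulators of mitochondrial and energy genes. ESRRA had 9 peaks near a gene of 11.2 kb, and 3.25% of genes in its length class had as many. They were 370 to 1508 bp wide, with 3 in the gene, 1 upstream and 5 downstream. All 9 also count for neighbours (KCNK4, CATSPERZ, TRMT112 or PRDX5), and the surrounding sequence held 113 peaks per Mb. The count of ESRRA can therefore not be told apart from that of its region.

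ESRRG, of 634 kb, was the opposite case, with 6 peaks that count for it alone and 3 peaks per Mb around it. Of the 6, 4 lay in the outer 48.1 kb of the gene at its 5′ side or just upstream. Peaks of 964 bp (217137410 to 217138373) and 901 bp (217089652 to 217090552) covered 4 of the 8 windows in part or in full, the printed ones among them. Between these 2 peaks lay those of 1130 and 415 bp, which covered no window. The other 2, of 466 and 417 bp, were far inside the gene. ESRRB had 4 peaks in its body, the widest of 1081 bp at 98.5% of the gene's length, and its 3 windows were 20.7 to 86.1 kb from any peak.

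The estrogen and steroid receptor genes each had 1 or 2 peaks, and in each of these 5 genes a peak touched a promoter window. ESR2, the gene of estrogen receptor beta, had a peak of 834 bp over the inner start printed above (64294164 to 64294997) and one of 416 bp beside the upstream start. NR3C2, which encodes the mineralocorticoid receptor, had a peak of 1498 bp across its 5′ region (148443698 to 148445195). Another peak of NR3C2, of 374 bp, lay downstream. PGR, the progesterone receptor gene, had 1 peak of 1008 bp (101128067 to 101129074) that reached into 2 of its 3 windows. NR3C1 had its 758 bp peak and another of 324 bp in the gene body. ESR1 had its 812 bp peak and one of 335 bp upstream. These genes are 100 to 473 kb long, and in their length classes the median gene also had 2 peaks.

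The thyroid hormone receptors mediate the response to T3, and both genes had covered starts. THRA had 6 peaks on chromosome 17, the widest of 1316 bp (40062891 to 40064206), which took in 124 bases of the promoter window. The 500 kb to either side of THRA held 74 peaks per Mb, against a median of 23.0. Of its 6 peaks, 4 also count for another gene, and the part of the region was not tested. The peaks of 943 and 1240 bp lay in the last part of the gene and are also the only ones near NR1D1. NR1D1 encodes REV-ERB alpha, a heme-binding repressor of the circadian clock, and overlaps THRA at its far end. Neither peak was inside NR1D1, and its own start was 8.28 kb from a peak. THRB had 3 peaks, of 566 and 378 bp over its 2 starts and of 342 bp near the far end of a gene of 379 kb. NR1D2, which encodes REV-ERB beta, had 1 peak of 491 bp, 1.73 kb beyond its far end.

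The PPARs bind fatty acids and steer their oxidation and storage. PPARD had 6 peaks on chromosome 6 that count for it alone, in surroundings with 33 peaks per Mb. The widest, of 1136 bp (35384135 to 35385270), lay at 49.2% of the gene's length, and one of 363 bp reached 43 bases into the promoter window. PPARG, the regulator of fat cells, had 1 peak of 819 bp (12288104 to 12288922), which reached into 2 of its 6 windows. PPARA had none, and the nearest lay 19.6 kb away. PPARA is the only one of the 40 in the outer 5 Mb of a chromosome, and the 500 kb to either side of it held 71 peaks per Mb. In its length class 21.6% of genes had no peak.

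Of the receptors for oxysterols and bile acids, NR1H2 (LXR beta) had 5 peaks and NR1H3 (LXR alpha) 1. The widest of NR1H2, of 2588 bp (chromosome 19, 50376484 to 50379071), was the widest at any of the 40 genes, wider than 98.8% of all peaks. It took in the last 23 bases of the promoter window and ran over the first part of the gene's 6.93 kb, with its midpoint 1.32 kb from the start. All 5 also count for POLD1, and the region held 109 peaks per Mb. The peak near NR1H3, of 624 bp, lay beyond its far end inside MADD. NR1H4, the bile acid receptor FXR, had 1 peak of 529 bp near its far end and 1 of 598 bp inside GAS2L3.

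VDR, the vitamin D receptor gene, which drives monocytic maturation of myeloid cells when its ligand is given, had 4 peaks on chromosome 12, all for it alone. The widest, of 1610 bp (47832527 to 47834136), was 8.21 kb outside the gene, and one of 1503 bp (47843795 to 47845297) was inside it. The other 2 were 531 and 332 bp. NR1I2, the xenobiotic receptor PXR of liver and gut, had 1 peak of 715 bp in its body. NR1I3, the xenobiotic receptor CAR, had none within 10 kb, with the nearest 14.6 kb away.

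The COUP-TFs are orphan receptors of embryonic patterning, and 2 of the 3 genes had clusters of peaks. NR2F1 had 7 peaks within a gene of 11.4 kb and its flanks, 390 to 923 bp wide, and 7.01% of its length class had as many. Of these, 5 lay outside the gene, 4 of them downstream, and all 7 count for it alone. NR2F2 had 4, the widest of 1589 bp (chromosome 15, 96322042 to 96323630) upstream of the gene. Its window at the inner start was 38 bp short of a peak of 1147 bp. The surroundings of these genes held 15 and 10 peaks per Mb. NR2F6 had 1 peak of 423 bp, which also counts for OCEL1.

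NR2E1, which encodes TLX, a receptor of neural stem cells, had 4 peaks on chromosome 6, among them 2 of the 3 widest at the 40 genes. These were 2183 bp (108174557 to 108176739) and 1839 bp (108168126 to 108169964), both inside the gene. NR2E3, the photoreceptor-specific receptor, had 1 peak of 784 bp just inside its start. The TR4 gene NR2C2 had 2, both inside MRPS25. NR0B1, which encodes DAX1, a receptor-like repressor of steroid synthesis, had 1 peak of 899 bp on chromosome X with its midpoint 0.581 kb inside the start.

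**Figure D3:**
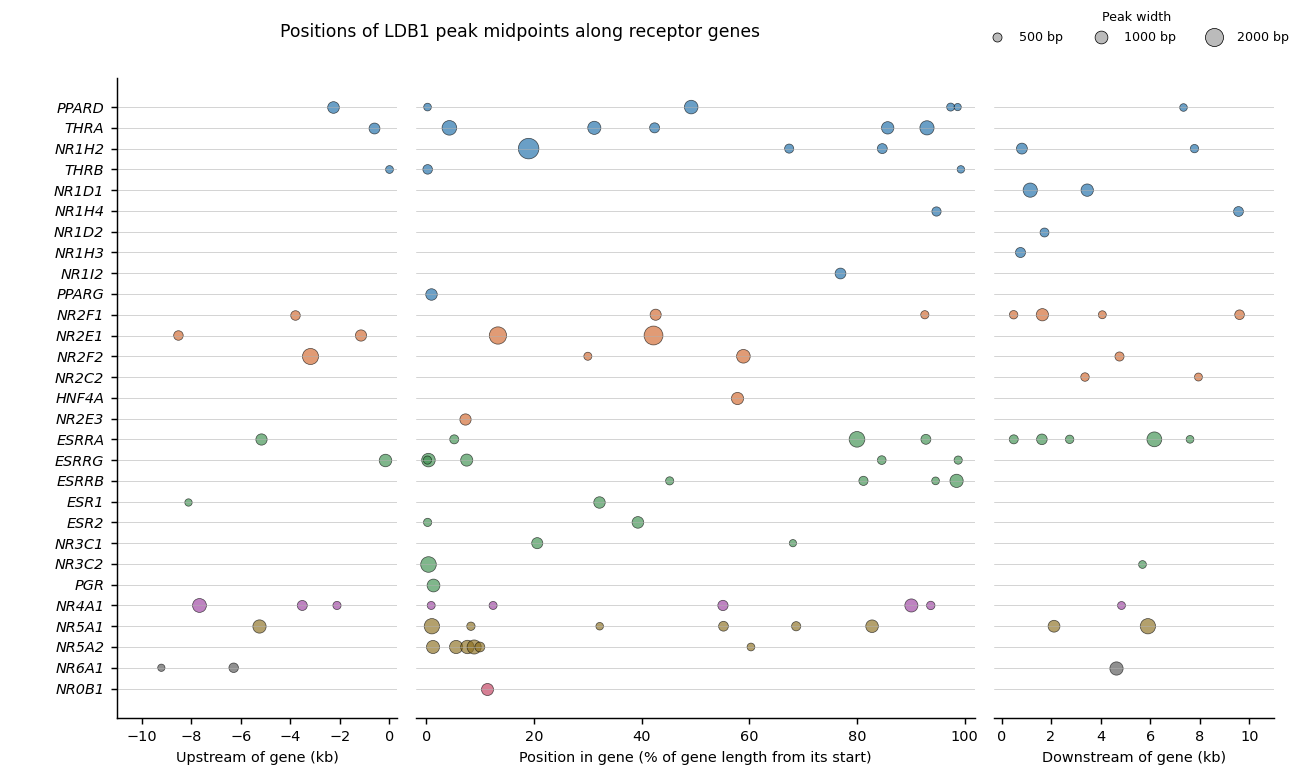
Midpoints of LDB1 peaks along the receptor genes with a peak and a known strand: kb upstream (left), percent of the gene's length from its start (middle) and kb downstream (right), with the area of each point in proportion to peak width and colours for the subfamilies. Peaks of NR5A2 gather in the first part of the gene (5 of 6 at 1.24 to 9.94% of its length), and those of NR2F1 and ESRRA run downstream.

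By position, 69 of the 114 pairs of a peak and a receptor gene had the midpoint in the gene body. In genes of known strand 16 were upstream and 25 downstream, and 4 lay outside genes without a strand. The 15 genes with a peak at an end split into 11 at the start and 4 at the far end, ESRRA at both, with NR4A2 of unknown strand. Over protein-coding genes of known strand, 31.9% had a peak at the start and 10.5% at the far end, so 11 and 4 of 35 are near the background.

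The 114 pairs are 111 deposited peaks, since 3 count for 2 receptor genes each. Of the 111, 38 also count for another protein-coding gene. A peak that counts for no other gene lay near 25 of the 40 receptors (62.5%), against 44.7% of all protein-coding genes and 55.6% at like length. The genes whose peaks were all shared were NR1D1, NR1H2, NR1H3, NR2C2, NR2F6, ESRRA and NR6A1. The median width was 599 bp (quartiles 416.5 and 971 bp, range 324 to 2588 bp) against 563 bp for peaks near any protein-coding gene. Widths of 1 kb or more made up 24.3% of the 111 and 18.0% of peaks near protein-coding genes. With the widest 25% of all peaks alone, 22 of 40 receptors (55.0%) had one in or within 10 kb, against 34.9% of protein-coding genes and 37.5% at like length. With the widest 50% it was 29 of 40 (72.5%), against 52.5% and 56.5% at like length.

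Gene length and peak number were barely related in the receptors. Across the 40 genes Spearman's rho between length and number of peaks was -0.0683, a description over genes that share 1 library. RORA was the clearest case. It encodes a lipid-sensing receptor of the clock and of lymphoid cells, is 741 kb long and had no peak, in a stretch of 1.66 Mb of chromosome 15 without one. Of 314 protein-coding genes of 500 kb or more, 93.9% had a peak and 19 had none. RORB lay in a stretch of 428 kb without a peak and HNF4G, the kidney and gut relative of HNF4A, in one of 288 kb. For NR2C1 the stretch was 236 kb and for NR0B2, the bile-acid induced repressor SHP, 87.7 kb. The 500 kb to either side of RORA, RORB and HNF4G held 4, 7 and 6 peaks per Mb, below the median of 23.0, while the regions of PPARA and NR1I3 (55) were above it. The part of these surroundings in the absent peaks was not tested.

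**Figure D4:**
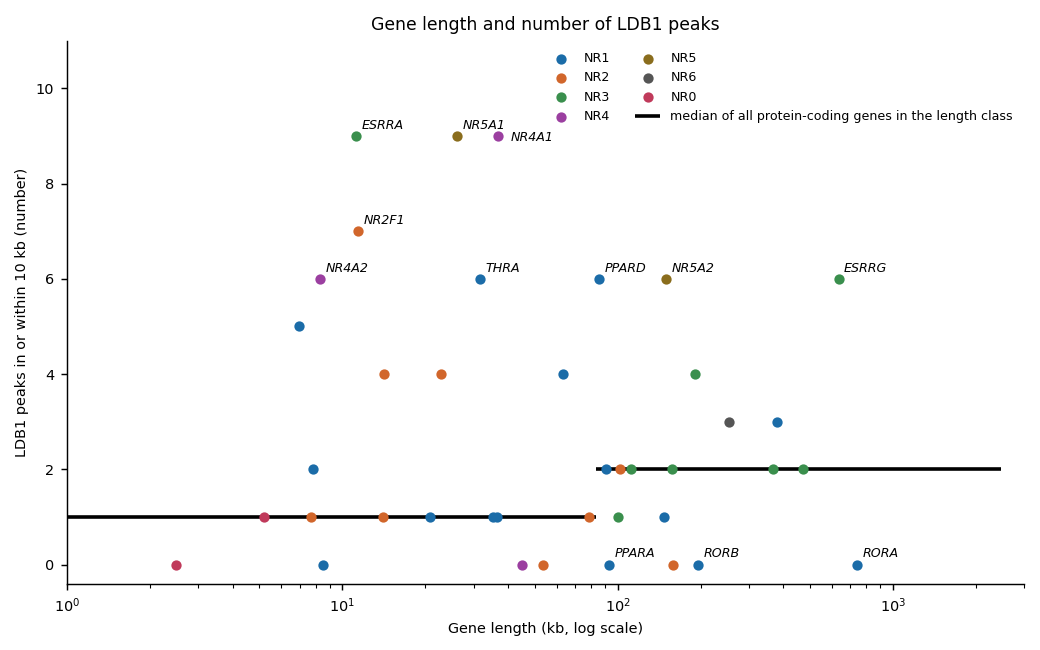
Number of LDB1 peaks in or within 10 kb against gene length (kb, log scale) for the 40 receptor genes, with black lines at the median of all protein-coding genes in each of 10 length classes (1 or 2 peaks). Short genes such as ESRRA and NR2F1 sit far above the line, and RORA, the longest, sits at 0.

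The RAR and RXR genes, as the nearest relatives, had a peak near 5 of 6 (4.39 at like length) and at an end of 4 (2.29 at like length), with a median of 1.5 peaks. RXRA, with 33, had more than any of the 40 genes and lies in the outer 5 Mb of chromosome 9, and RXRB had none, though it lies in a region with alternate copies on which peaks were not counted. That these groups differ was not tested.

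Genes that work with the receptors carried peaks about as often as genes of like length. Of 25 coregulator genes, 20 had a peak near them (80.0%; 19.7 at like length) and 9 had one at an end (9.94 at like length). Their median was 2 peaks. TBL1XR1, which encodes a subunit of receptor corepressor complexes, had 5 peaks (widest 1652 bp). The coactivator genes PPARGC1A and NCOA7 had 1 and 2 peaks (widest 1554 and 1392 bp). The coactivator genes NCOA2 and NCOA3 and the corepressor gene NRIP1 had none.

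Of 22 genes for ligand enzymes, transport and chaperones, 16 had a peak near them (15.5 at like length). At an end 9 had one (8.24 at like length), and the median was 3 peaks. Wide peaks lay near STIP1, a cochaperone of HSP90 (2433 bp), HSD11B2, which inactivates cortisol (1620 bp), and HSP90AA1 (1247 bp). Those of STIP1 and HSD11B2 lay outside the gene. CYP24A1 and CYP2R1, of vitamin D metabolism, and HSD11B1 had none.

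Of 32 textbook receptor targets, 27 had a peak near them (84.4%; 22.5 at like length) and 16 had one at an end (12.0 at like length), with a median of 2. Wide peaks lay near KLF9, a target of glucocorticoid and thyroid hormone receptors (2707 bp, outside the gene), HR, a corepressor gene that thyroid hormone induces (2620 bp), and ABCA1, the cholesterol exporter that LXRs induce (1593 bp). HR had 13 peaks near a gene of 16.6 kb, a number that 0.951% of its length class reached. CYP24A1, which is also on the ligand list, CAMP and FABP4 had none. These lists overlap in a few genes, and none of these shares was tested.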

How the data were processed

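Sites of LDB1 were measured by CUT&Tag in 1 library of untreated NB4 cells, and the IgG library was not used here. Per the file headers, the deposited values were the chromosome, start, end and width in bp of 53742 peaks. The submitters' processing notes name hg38, Bowtie2 2.4.1 and MACS2 2.0.10; parameters, threshold and duplicate handling were not given in the sources used here. Peak number and width rise with depth, which was unknown.

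The 52765 peaks on chromosomes 1 to 22 and X were set against protein-coding genes and 300-base promoter windows of RefSeq (GRCh38.p14), which gave the strand, with Python 3.11.15, pandas 2.3.3 and SciPy 1.17.1. Peaks counted by their midpoint, and windows by an overlap of at least 1 bp. Values at like length are the share of protein-coding genes in each member's length class, averaged over the members. The lookup was tested on simulated data. All members and the lists' 4 widest and up to 3 peakless genes were to be named; a few of these list genes are counted but not reported here by name. Members and lists were chosen with earlier results of these data known, so their counts are no independent support. Alternatives changed peak width, distance, overlap, position and sharing.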

Additional observations from a re-analysis of the deposited data

How the results depend on the processing

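With 1 library no replicate could be left out. The share of receptors with a gene-end peak (37.5%) was 12.5% with the widest 25% of peaks and 22.5% at 500 bp, against 13.9 and 26.8% of protein-coding genes, so it stayed near the background. The share near a gene (80.0%) was 72.5% with the widest 50% of peaks (52.5% of protein-coding genes, and 56.5% at like length). With the widest 25% it was 55.0% (34.9%, and 37.5% at like length). It was 62.5% without peaks shared with another gene (44.7%, and 55.6% at like length) and 95% at 50 kb (86.1%). The median of 2 peaks was 1 with the widest 50% or 25% of peaks, without shared peaks and with the gene body only, and 4.5 at 50 kb. The share with a covered promoter window (40%) was 57.1% with midpoints within 1 kb of the window (36.4% of protein-coding genes). It was 37.1% over the broader 50% of peaks (19.9%) and 25.7% over the broadest 25% (12.6%). These shares of protein-coding genes were not matched for number of windows, of which receptor genes have more. The receptor shares all lie inside the interval of the 40%, but that interval covers counting error only and does not measure stability. Depth was unknown, so an absent peak says only that none is listed.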
